A study of Mus musculus with 12 samples.

Results

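The regions described here are sites of mouse embryonic stem cell chromatin at which the Mediator subunit MED24 was called in each of its 4 ChIP-seq libraries while the subunit MED1 was called in none of its own 4. They were chosen by the authors' peak calls: the 8 peak lists were merged wherever peaks overlapped by at least 1 bp on chromosomes 1 to 19, X and Y, and 770 of the resulting 78166 regions (0.985%) met both conditions. The presence of MED24 and the absence of MED1 calls are therefore the selection and not a result. The cells were of the line E14tg2a, derived from 129SV mice, and carried a stably expressed cRAF-ErT2 cassette, a RAF kinase that 4-hydroxytamoxifen (4OHT) switches on so that ERK signalling starts. Every group was grown with serum, LIF and 2 µM Chir99021, and all were moved 24 h before the experiment to serum and LIF with 250 nM of the FGF receptor inhibitor PD173074. MED24 and MED1 were each profiled in clones a and b without treatment (0 h) and after 2 h of 250 nM 4OHT, which gives 4 groups of 2 libraries. MED1 was precipitated with an antibody to the protein and MED24 through anti-FLAG. How the tag was attached to MED24 is not stated in the labels, and no library without the tag or without the cassette, and no vehicle control, was analysed here. The 4 input samples were not analysed here either. All peak names in the 4 MED24 lists contain FLAG together with a folder called EP300, which is a different coactivator. The sample labels say MED24, and the labels were followed. With that mismatch, MED24 below means the libraries labelled MED24.

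Mediator is the large complex that passes signals from DNA-bound transcription factors to RNA polymerase II. MED24 belongs to its tail module, the part that contacts many activators, together with MED16 and MED23. MED1 sits in the middle module, binds nuclear receptors and other factors, and is widely used to mark active enhancers in embryonic stem cells. Both subunits are usually mapped to enhancers and gene starts.

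Few of these regions lay at a promoter, and the promoters that did are shown first because sequence was used only for the 250 bases before and 50 bases after RefSeq gene starts (GRCm38.p6, the assembly of mm10). Of the 770 regions, 13 touched such a window of a protein-coding gene, 14 windows of 13 genes in all. The strongest was at Rtbdn, which encodes retbindin, a riboflavin-binding protein of the retina. Next came Neurod4, a basic helix-loop-helix factor gene of neurons. Lhx3, a LIM homeobox gene of pituitary and motor neurons, and Elk1, an ETS factor gene whose product ERK phosphorylates, are printed as well. Rtbdn follows the rule for named regions, and the other 3, whose windows lie wholly in the region, were chosen after their values were seen. Capitals mark matches, on either strand, to the motifs searched. All 4 windows hold CCCTC and the GC box CCGCCC. Lhx3 and Elk1 also hold the CACCC box, Rtbdn and Lhx3 the TATA word TATAAA, and Elk1 the E-box CACGTG. The Rtbdn region, however, covers only the last 95 bases of its window. Of the matches marked there only CCGCCC lies in the region, and the CCCTC and TATA matches lie before it. Neighbouring matches can overlap.
Rtbdn, chr8:84946741-84947040, plus strand: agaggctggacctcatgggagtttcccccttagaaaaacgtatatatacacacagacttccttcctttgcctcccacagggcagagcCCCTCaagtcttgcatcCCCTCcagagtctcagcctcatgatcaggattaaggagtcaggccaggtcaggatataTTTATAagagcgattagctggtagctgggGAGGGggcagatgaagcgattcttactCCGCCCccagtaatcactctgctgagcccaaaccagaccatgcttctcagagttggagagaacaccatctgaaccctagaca
Neurod4, chr10:130280089-130280388, minus strand: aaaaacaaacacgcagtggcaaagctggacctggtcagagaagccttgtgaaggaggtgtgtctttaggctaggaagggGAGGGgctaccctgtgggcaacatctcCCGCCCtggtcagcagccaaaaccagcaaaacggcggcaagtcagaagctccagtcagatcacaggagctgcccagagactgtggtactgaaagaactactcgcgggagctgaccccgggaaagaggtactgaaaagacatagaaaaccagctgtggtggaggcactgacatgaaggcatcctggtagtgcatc
Lhx3, chr2:26208200-26208499, minus strand: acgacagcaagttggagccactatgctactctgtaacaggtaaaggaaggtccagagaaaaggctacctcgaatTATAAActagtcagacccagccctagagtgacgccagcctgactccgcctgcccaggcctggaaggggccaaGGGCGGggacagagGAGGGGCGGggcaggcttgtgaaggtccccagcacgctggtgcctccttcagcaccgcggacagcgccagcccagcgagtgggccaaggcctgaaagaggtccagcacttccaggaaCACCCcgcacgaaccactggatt
Elk1, chrX:20950559-20950858, minus strand: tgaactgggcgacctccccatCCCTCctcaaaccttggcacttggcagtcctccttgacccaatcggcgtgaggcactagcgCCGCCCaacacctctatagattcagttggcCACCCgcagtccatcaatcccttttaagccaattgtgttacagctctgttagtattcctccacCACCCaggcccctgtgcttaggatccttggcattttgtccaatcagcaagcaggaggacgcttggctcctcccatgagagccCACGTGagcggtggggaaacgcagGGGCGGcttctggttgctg

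The 14 windows had a median GC content of 56% and a median CpG observed-to-expected ratio of 0.486. The 8728 windows touched by regions called in all 4 libraries of both proteins had 63.0% and 0.829, and all 21262 protein-coding windows in the table had 56.3% and 0.567. The ETS word CCGGAAG was in 0 of the 14 windows, in 22.5% of those at regions of both proteins and in 11.6% of all. NRF1 (GCATGCGC), YY1 (AAGATGGCG) and CRE (TGACGTCA) words were also in none of the 14 and in 6.69%, 3.91% and 4.02% of the windows at regions of both proteins, against 3.51%, 1.83% and 2.23% of all. The GC box was in 9 of 14 windows, or 64.3%, against 71.4% and 46.2%. The TATA word was in 2 of 14, or 14.3%, against 5.56% and 12.6%. CCCTC was in 78.6% of the 14, 76.7% of those at regions of both proteins and 69.6% of all, and the CACCC box in 78.6%, 63.0% and 59.5%. The E-box, a CTCF core (CCACNAG), an AP-1 word (TGANTCA) and a SOX word (ACAAAGG) were each in 1 of 14, or 7.14%, against 7.84%, 15.4%, 6.99% and 5.39% of all windows. OCT (ATGCAAAT), ESRR (TCAAGGTCA) and ZBTB33 (TCTCGCGAG) words were in 0 of 14 and in 1.66%, 0.334% and 0.964% of all. With 14 windows these shares are coarse, and a match or its absence describes the letters only. Whole windows were counted, although some regions, such as that at Rtbdn, covered only part of theirs.

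Scores are given in pairs, clone a before clone b. Neurod4 had MED24 scores of 443 and 418 at 0 h against 573 and 437 after 4OHT. The score is the authors' own value for each peak, at least 20 in each list. In the MED1 lists a higher score stands for a lower q-value. The MED24 scores were read in the same way, which their lists do not state. The times overlapped at Neurod4 (437 at 2 h, 443 at 0 h) and at Rtbdn, with 1670 and 1721 at 0 h and 1689 and 1831 at 2 h. At Elk1 the scores were 38 and 27 at 0 h and 76 and 182 at 2 h, so both 2 h libraries stood above both 0 h libraries. Lhx3 had 77 and 98 at 0 h and 108 and 226 at 2 h, again without overlap. The reverse order was found at Eda, a TNF family ligand gene of skin appendages (68 and 78, then 40 and 34), at Fbll1 (282 and 284, then 253 and 138) and at Crybg2 (146 and 146, then 92 and 61). Of the 13 regions that touched a promoter window, 3 had both 2 h scores above both 0 h scores, 3 had both below, and in 7 the times overlapped. No share over all MED24 regions was counted for this order, so these counts have no background and describe single regions only.

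The question that these regions bear on is how the subunits of Mediator differ in where they are detected. Regions called in all 4 MED24 libraries numbered 21232, of which 17027 were also called in all 4 MED1 libraries, 3132 in 2 or 3, 303 in 1 and 770 in none. The regions never called for MED1 were thus 3.63% of the MED24 regions, and they outnumbered those with a single MED1 call. Regions of the opposite kind, called in all 4 MED1 and no MED24 library, numbered 375. The single MED1 calls of the 303 regions came from all 4 MED1 libraries (81 and 73 from the 0 h libraries of clones a and b, 61 and 88 from the 2 h libraries). They stood at a median percentile of 26.6 within their MED1 list, with a median score of 69. Without the MED24 2 h library of clone a, calls in the other 3 libraries gave 1225 regions in place of 770, and that library was the missing one for 455 of the 953 regions called in 3 MED24 and no MED1 libraries. The 0 h libraries of clones a and b were the missing one for 106 and 185, and the 2 h library of clone b for 207.

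MED24 scores of the 770 regions ran from 31 to 3502 in the 0 h library of clone a (median 156) and from 23 to 3482 in that of clone b (median 129). At 2 h they ran from 25 to 2449 in clone a (median 108) and from 20 to 2411 in clone b (median 112). Both 2 h medians stood below both 0 h medians. Because lists differ in length, each score was also turned into a percentile, its rank among all peaks of its library (100 is the strongest). The share of regions never called for MED1 was 8.05% in the weakest of 10 equal groups of the 21232 regions by mean MED24 percentile, 1.22% in the seventh group and 1.55% in the strongest. Of the 770 regions, 35 had a mean percentile of at least 90 and 19 of at least 95.

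**Figure D1:**
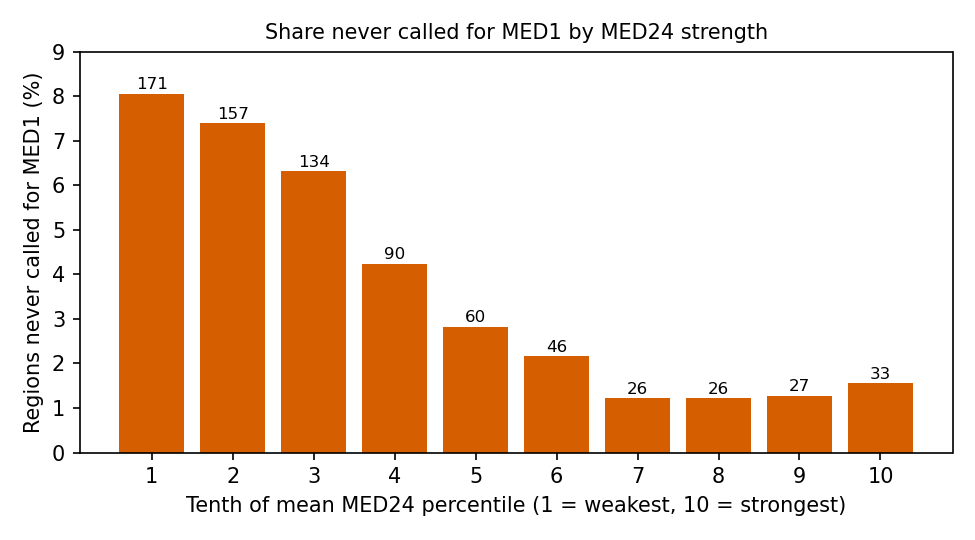
Share (%) of regions called in all 4 MED24 libraries that were never called for MED1, in 10 equal groups by mean MED24 percentile (x axis, weakest to strongest). Bars start at 0, and the shares go from 8.05% (171 regions) in the weakest group to 1.55% (33 regions) in the strongest.

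The strongest region never called for MED1 lay 1.179 kb from Plppr2 on chromosome 9 (21950087 to 21950927, mm10), with scores of 3502 and 3482 at 0 h, then 2449 and 2411 at 2 h. The next lay on chromosome 18 (83543325 to 83544488), 467 kb from the nearest protein-coding gene, Tshz1, with 2615 and 2309 at 0 h and 1859 and 2172 at 2 h. In both, each 2 h score was below each 0 h score, but the percentiles within the lists hardly moved. The shifts in clones a and b were -0.458 and -0.701 points near Plppr2. On chromosome 18 they were -0.810 and -0.362. A region in Camta1, the gene of a calmodulin-binding transcription activator, followed (chromosome 4, 151288841 to 151289609), with 2005 and 2133 at 0 h and 1895 and 1909 at 2 h. Then came the Rtbdn region (chromosome 8, 84946946 to 84947737) and 1 at 0.576 kb from Gprin1, whose product promotes neurite outgrowth (chromosome 13, 54750451 to 54751273; 1703 and 1717, then 1674 and 1646). The remaining 5 of the 10 strongest lay in Trappc9, a subunit gene of a vesicle-tethering complex (chromosome 15, 72689674 to 72690237), 23.6 kb from Potegl (chromosome 2, 23290724 to 23291657), 80.3 kb from the TALE homeobox gene Pbx3 (chromosome 2, 34090574 to 34091180), in Nsf, the gene of a membrane fusion ATPase (chromosome 11, 103920528 to 103921241), and 262 kb from Gjb5 (chromosome 4, 127619784 to 127620278). Their scores were between 1034 and 2176 in every library, and mean percentiles of the 10 ran from 97.5 to 99.5. Only at Rtbdn did a listed gene start lie in the region.

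The boundary of the selection was close for a few regions. The smallest gap to a MED1 peak was 28 bp, at a region in Chic1 (chromosome X, 103405067 to 103405501), followed by 35 bp at a region far from genes on chromosome 13 (52190780 to 52191298) and 40 bp at a region in Ankrd13b (chromosome 11, 77488570 to 77489267). On the MED24 side, the lowest score of a selected region was 20, the floor of the lists, in a region in Glis3 that scored 146, 148 and 112 in the other libraries. Just outside, the strongest region with 1 MED1 call lay in Garnl3 (chromosome 2, 33017916 to 33018589), at a mean MED24 percentile of 98.5 and a MED1 score of 66 in the 0 h library of clone a. The next 2 outside, on chromosome 2 (98329921 to 98330664) and 15.1 kb from Zfp820 on chromosome 17 (21801354 to 21801792), had MED1 scores of 40 and 100 at 2 h in clone a.

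Most of the 770 regions lay kilobases from the nearest MED1 peak. The median gap to the nearest MED1 peak of any library was 15.9 kb (quartiles 4.85 and 51.6 kb, largest 769 kb). A gap of at most 500 bp was found for 36 regions, or 4.68%, and 111 regions, or 14.4%, lay over 100 kb from any MED1 peak. Those 111 had a median mean MED24 percentile of 48.7, and the 59 regions within 1 kb of a MED1 peak had 42.8. The median distance from one of the regions to the nearest other was 1033 kb, and 12 of 770 had another within 10 kb. No like value is given for another set. They were also narrow, with a median width of 424 bp, against 1094 bp for regions called in all libraries of both proteins. Merging widens regions that hold peaks of more lists, so the MED24 peaks themselves are the closer comparison, at 324 bp against 665 bp. Regions with 1 MED1 call had MED24 peaks of like width, 324.5 bp, and those with 2 or 3 calls had 396 bp. Narrow peaks were thus not particular to the regions never called for MED1. The widest was 1348 bp, 10.7 kb from Rdx, the gene of radixin, with scores of 1734 and 1053 at 0 h and 876 and 1312 at 2 h. The next 4, in Mettl8 (1169 bp), far from genes on chromosome 18 (1164 bp, the second strongest region), chromosome 15 (1090 bp) and chromosome 14 (966 bp), had no listed gene start within them. In 755 of the 770 regions, or 98.1%, each library held a single MED24 peak, which was so in 73.6% of the regions of both proteins. The share was 95.7% with 1 MED1 call and 91.1% with 2 or 3.

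These regions lay at or in genes less often than the other MED24 regions, with the widest difference in share from regions of both proteins. A protein-coding gene start lay within 1 kb of 25 of 746 regions, or 3.35% (95% exact binomial interval 2.18% to 4.91%, counting error over regions only). The share was 9.90% for regions with 1 MED1 call, 11.9% with 2 or 3 and 42.6% with all 4, and 6.08% for the 362 MED1 regions never called for MED24. Starts were taken from 17491 of 21883 protein-coding genes. Regions on chromosome 18, whose starts were not used here, were left out of these counts. Either end of a gene span, which the table gives for all chromosomes, lay within 1 kb of 4.81% of the 770 regions and of 48.5% of those of both proteins. The regions lay in a gene span in 298 of 770 cases, or 38.7%, against 70.9% of regions of both proteins. The other sets were closer, at 47.5% with 1 MED1 call, 49.4% with 2 or 3 and 45.1% for the MED1 regions never called for MED24. No protein-coding gene lay within 100 kb of 188, or 24.4%, against 5.37%. Of the 472 regions outside genes, the median distance to a gene was 49.3 kb, against 21.3 kb for regions of both proteins. The other sets had 16.5, 23.6 and 17.0 kb. Of the 35 regions at percentile 90 or more, 2 of the 33 with listed starts were at a gene start, 11 lay in a gene and 5 had no gene within 100 kb. Regions are not replicates of a condition, so no test was made of these shares. Regions of both proteins were also wider and stronger, and shares were not compared at matched width or strength.

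**Figure D2:**
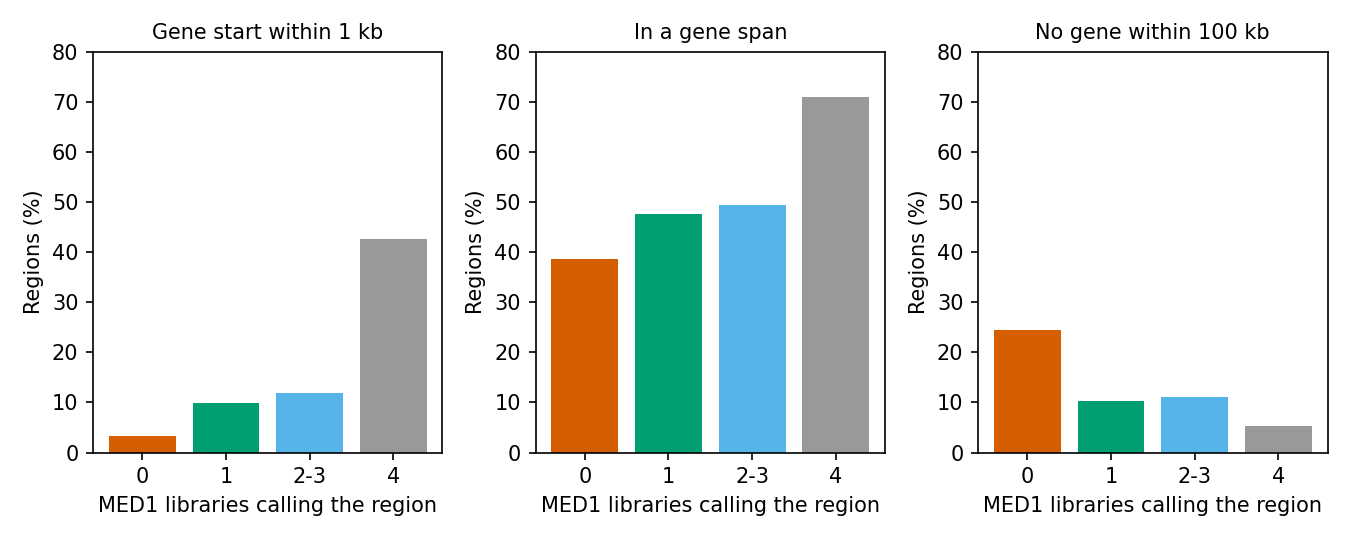
Share (%) of regions called in all 4 MED24 libraries that had a protein-coding gene start within 1 kb (left), lay in a gene span (middle) or had no protein-coding gene within 100 kb (right), by the number of MED1 libraries that called them. From left to right in the first panel the bars stand at 3.35%, 9.90%, 11.9% and 42.6%.

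Chromosome 6 held more of these regions than any other chromosome, 99 of 770 or 12.9% (95% exact binomial interval 10.6% to 15.4%, counting error over regions only), where it held 6.77% of all regions called in the 4 MED24 libraries. Chromosome 8 held 61, or 7.92% against 6.20%, and chromosome 14 held 42, or 5.45% against 3.79%. Chromosome 19 held 7, or 0.909% against 3.0%. Chromosome Y held 2 of 770, or 0.260%, against 0.0754% (16 regions). Of the 35 regions at percentile 90 or more, 1 was on chromosome 6 (2.86%), and of the 735 below it 98 were (13.3%). The 99 regions were spread over the whole of chromosome 6, with 4 to 10 in each of its 15 segments of 10 Mb. Of regions with no MED1 call, chromosome 6 held 6.75% of those called in 1 MED24 library, 6.31% of those in 2, 7.87% of those in 3 and 12.9% of those in 4. The MED1 regions never called for MED24 had a like share on chromosome 6, 47 of 375 or 12.5%. Whole peak lists did not: 6.60% to 7.10% of the peaks of each library were on chromosome 6. Scores on chromosome 6 were higher in every library, also at regions called throughout for both proteins, where the medians on chromosome 6 and elsewhere were 277 and 229 at 0 h in clone a for MED24 and 253 and 227 in the same clone and time for MED1. At the 770 regions they were 193 and 146 in that MED24 library. What part this higher score had in the count was not tested, and DNA copy number was not measured in the files used here. The strongest of the 99 lay 115 kb from Ankrd7 (18994881 to 18995465), in St8sia1, which encodes a ganglioside sialyltransferase (142937498 to 142938121), and in Crhr2, which encodes a receptor for corticotropin-releasing hormone and urocortins (55108210 to 55108791). Of the 99, 0 had a listed gene start within 1 kb, against 3.86% of the regions on other chromosomes with listed starts.

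**Figure D3:**
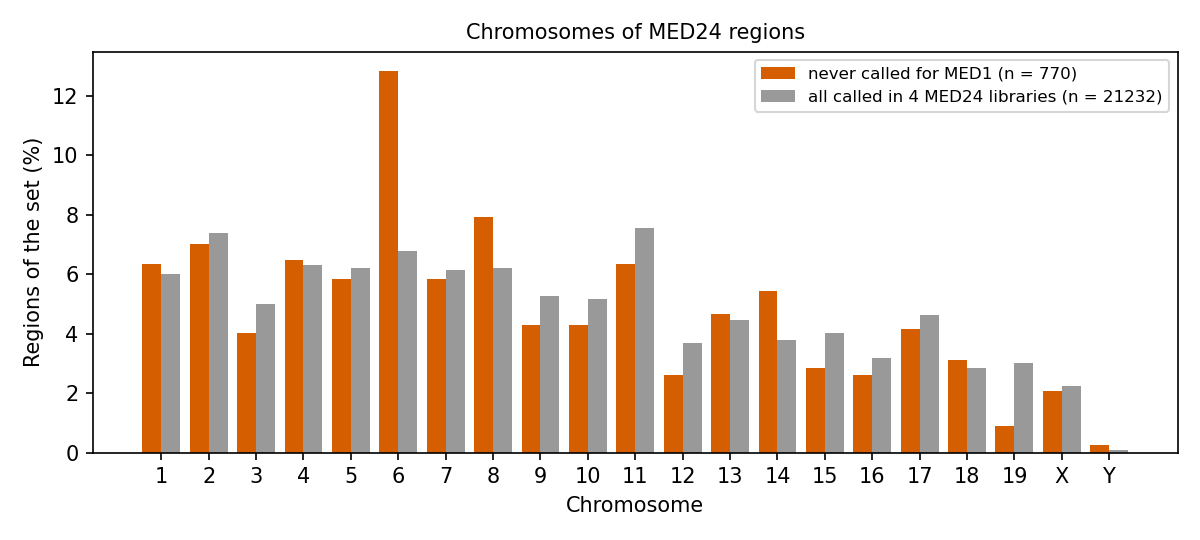
Share (%) of regions on each chromosome, for regions never called for MED1 (orange) and for all regions called in the 4 MED24 libraries (grey). Chromosome 6 stands at 12.9% and 6.77%, chromosome 19 at 0.909% and 3.0%.

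ERK activation was compared through the MED24 percentile of each region, since the selection asks for a MED24 call at both times. It also leaves out regions with any MED1 call, and the MED1 lists were longer at 2 h. They held 43949 and 47305 peaks, against 38668 and 37483 at 0 h. The selection may therefore not be neutral between the times, and its effect on the shifts was not tested. Across the 770 regions the 0 h libraries had median percentiles of 60.6 (clone a) and 52.6 (clone b), and the 2 h libraries 42.3 and 43.6. Both 2 h libraries were below both 0 h libraries. Averaged over clones, untreated cells stood at 56.6 ± 5.60 and treated cells at 43.0 ± 0.935 (SD, n = 2 each). The treated mean minus the untreated mean was -13.6 points; clone a alone gave -18.3 and clone b -9.02. The exact two-sided permutation test over the 4 libraries gave p = 0.333 (n = 2), the smallest p that this design allows, so no difference could pass the usual threshold. Labels do not say whether clones are independent derivations, so this p-value concerns these 4 libraries only. It follows from the complete separation of the times and does not measure the size of the spread. For the regions called in all libraries of both proteins the difference was -0.645 points, with clone a at -3.72 and clone b at 2.43. Regions with 1 MED1 call went from 43.4 to 29.5 in clone a and from 34.2 to 37.0 in clone b. Those with 2 or 3 calls went from 50.1 to 40.3 in clone a and from 45.3 to 48.4 in clone b. A fall in clone a was thus found in these sets too, without one in clone b.

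**Figure D4:**
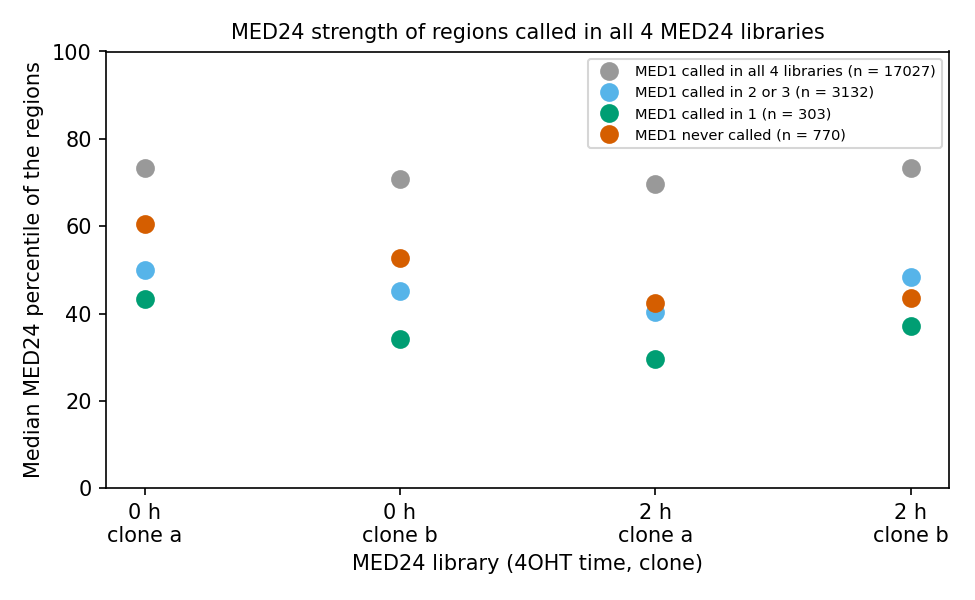
Median MED24 percentile of regions (y axis) in each MED24 library (x axis), by the number of MED1 libraries that called them. Regions never called for MED1 (orange) stand at 60.6 and 52.6 at 0 h and at 42.3 and 43.6 at 2 h, while regions of both proteins (grey) stay between 69.7 and 73.4. Regions with 1 MED1 call (green) and with 2 or 3 (blue) are lower at 2 h in clone a and higher in clone b.

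Taken region by region, 453 of the 770 (58.8%) had a lower percentile at 2 h in both clones, against 36.8% of all 21232 MED24 regions, and 52 (6.75%) had a higher one in both, against 34.4%. With a margin of 10 points in each clone, 225 (29.2%) were lower, against 18.6%, and 16 (2.08%) were higher, against 18.1%. The median shift, averaged over the clones, was -11.2 points (quartiles -20.1 and -2.79) for the 770 and -0.336 points (quartiles -12.6 and 12.1) for all. The comparison was repeated with regions of both proteins in the same range of strength. At a mean percentile from 40 to 60, 189 of 307 regions (61.6%) were lower in both clones and 15 (4.89%) higher. Among 3993 regions of both proteins 28.5% were lower and 35.6% higher. Under 40 the shares that were lower were 44.6% and 21.6%, from 60 to 80 they were 74.8% and 36.3%, and from 80 they were 73.2% and 43.3%. The shares that were higher were 12.6% and 36.8% under 40, 0.813% and 35.5% from 60 to 80, and 2.82% and 34.8% from 80. The 99 regions on chromosome 6 had a median shift of -13.9 points and the other 671 one of -10.6. Outside the selection, 13513 regions had no MED1 call and a call in 1 to 3 MED24 libraries. Of these, 1625 were called for MED24 in both 0 h and neither 2 h library and 692 in the reverse pattern. The same patterns were not counted for regions with MED1 calls, so these counts have no background. They too leave out regions with any MED1 call, and the MED1 lists were longer at 2 h.

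**Figure D5:**
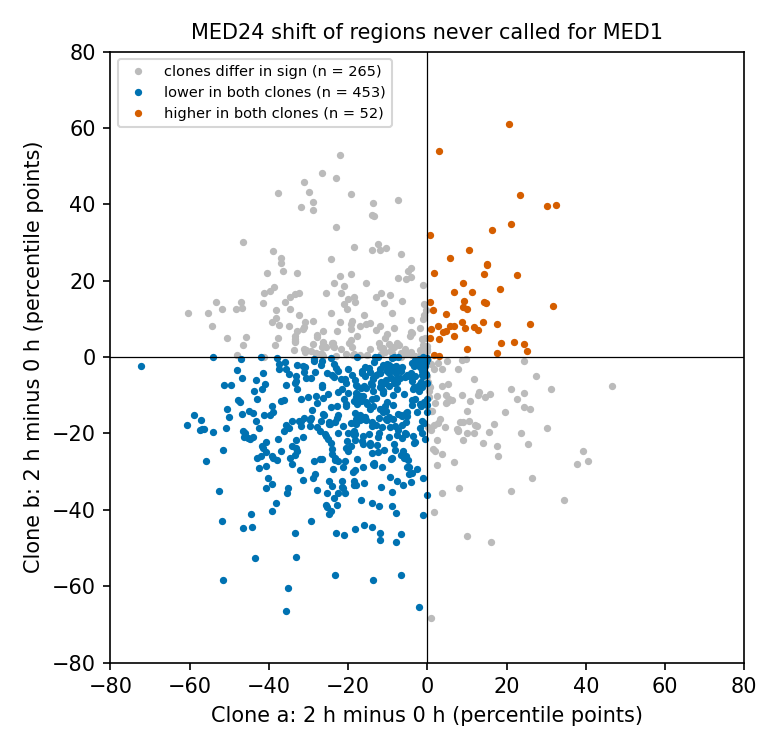
MED24 percentile at 2 h minus 0 h in clone a (x axis) and clone b (y axis), 1 point for each of the 770 regions. Most points, 453, are below 0 in both clones, 52 are above 0 in both and 265 differ in sign.

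Ranks kept less of their order between the clones than over all MED24 regions. Spearman's rho of the percentiles over the 770 regions was 0.698 between the clones at 0 h and 0.628 at 2 h, and from 0.614 to 0.659 between libraries of different times. Over all 21232 regions the clones stood at 0.859 and 0.865 and the times from 0.505 to 0.527. These are descriptions over regions that share libraries and depth, which is not known for these lists. The 21232 regions include the 770, which lay more often among the weaker ones, and rho was not computed at matched strength. For the 770 regions the agreement across times was thus close to that between clones, while for all MED24 regions it was well below.

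The 5 regions with the largest shift upward began with 1 that lay 0.158 kb from Pip5k1a, which encodes a kinase that makes phosphatidylinositol bisphosphate (chromosome 3, 95057857 to 95058371), with scores of 46 and 49 at 0 h and 108 and 129 at 2 h, in Fcgrt, the gene of the neonatal Fc receptor (chromosome 7, 45093431 to 45093927), with 109 and 70 and then 296 and 196, and 1989 kb from Pik3c3 on chromosome 18 (28276135 to 28276545), with 53 and 35 and then 100 and 117. A region 0.190 kb from Galnt7, a glycosyltransferase gene, and another in Igsf21 followed. In all 5, both 2 h scores were above both 0 h scores, and the shifts were from 21.2 to 42.5 percentile points. The regions were picked for large shifts of the same sign in both clones, which favours such separation.

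Large shifts downward were found at regions in Rxfp2, a relaxin family receptor gene (chromosome 5, 150080353 to 150080767; 176 and 216, then 67 and 76), and Mogat1, an acyltransferase gene (chromosome 1, 78568057 to 78568573; 154 and 138, then 61 and 52). Others were 6.523 kb from the kinase gene Hipk3 (chromosome 2, 104419507 to 104419957; 149 and 216, then 61 and 63) and in Dcdc5 (chromosome 2, 106267776 to 106268192; 156 and 227, then 50 and 83). None of these 4 had overlapping times, which the same choice favours. No single region was tested against the spread between clones.

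By the nearest protein-coding gene within 100 kb, 582 of the 770 regions belonged to 552 genes, and 523 of these genes had a single such region. Without the 2 h library of clone a there were 895 genes. Ppp1r9a, which encodes the actin-binding protein neurabin and lies on chromosome 6, had the most, 3 of its 10 regions called in the 4 MED24 libraries. Among the 28 genes with 2, Kifc3, a kinesin gene, Lin7a, a gene of synaptic scaffolds, and Mtdh had no other region called in all 4 MED24 libraries. Cnot4, a subunit gene of the CCR4-NOT complex, Kmt2c, a histone H3K4 methyltransferase gene, Cd300e, Gpatch2l, Hspb3 and Pcca each had 2 of 3.

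Genes with known roles in these cells were taken as lists, and each count is given beside the 3.63% of all MED24 regions that were never called for MED1. The 15 naive pluripotency genes had 63 regions called in all 4 MED24 libraries, of which 2 (3.17%) were never called for MED1 and 48 (76.2%) were called in all MED1 libraries. Both lay on chromosome 6, 13.67 kb from Nanog (122693255 to 122693818) and 7.622 kb from Dppa3 (122618384 to 122618801), neighbouring genes of the naive state. The Nanog region scored 229 and 295 at 0 h and 240 and 131 at 2 h and lay 0.215 kb from a MED1 peak. At Dppa3 the scores were 224 and 106, then 168 and 114. Of 65 regions at the 14 core pluripotency genes 2 (3.08%) were never called for MED1. One of them, 1.291 kb from Lin28a, an RNA-binding protein gene that blocks let-7 maturation, was among the strongest of all, with 1225 and 842 at 0 h and 802 and 970 at 2 h (chromosome 4, 134020488 to 134021178). At the Nanog, Dppa3 and Lin28a regions the times overlapped.

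The 17 ERK feedback genes had 0 such regions among 57 and the 18 immediate early genes 0 among 48. Primitive endoderm genes had 2 of 21 (9.52%), at Sparc (206 and 157, then 108 and 211) and Gata4 (101 and 56, then 108 and 73). Trophectoderm genes had 1 of 29, at Tfap2a. The 32 Mediator subunit genes had 1 of 38, which lay 2.933 kb from Cdk8, the kinase of the Mediator kinase module, with 65 and 59 at 0 h and 100 and 105 at 2 h. The genes of RNA polymerase II and general factors had 0 of 28, cytosolic ribosomal proteins 0 of 41 and mitochondrial ribosomal proteins 0 of 35. Proteasome genes had 1 of 41 (Psmb2), Polycomb genes 1 of 55 (Kdm2b), cohesin and CTCF genes 1 of 22 (Wapl), and neural, fibroblast and housekeeping genes 0 of 14, 5 and 27. No list was tested. As a check of the cell type, all 8 naive pluripotency markers had a region called in the 4 MED24 libraries, 45 regions in all, and 3 of 8 fibroblast markers had 5. Primitive endoderm and trophectoderm markers had regions at 5 of 8 genes each, 11 and 17 in all.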

How the data were processed

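MED1 and MED24 peak lists of 8 libraries were used, grouped by the sample titles. Bowtie2, bedtools and MACS2, and the build mm10, are listed in the submitters' processing notes. Not given in the sources used here are their versions, settings and any use of the inputs. Each library has its own deposited list. The deposited MED1 lists give a score, a fold enrichment (ratio) and −log10 p-values and q-values per peak; the score equalled the whole part of 10 times −log10 q for 100% of 167405 peaks. The deposited MED24 lists give a score only, read in the same way, which they do not state. Read numbers are in none of the lists, and depth is unknown.

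Peaks were merged at 1 bp of overlap and each region took its highest peak per library, as score and as percentile of the list. Genes were assigned within 100 kb by the RefSeq GRCm38.p6 table; a region counted as at a gene start within 1 kb. The rule for named regions was the 10 of highest mean percentile, the 5 largest shifts each way by the smaller clone shift, the 3 smallest gaps to MED1, the 3 strongest regions with 1 MED1 call, the 10 genes with most regions, the 5 widest regions and up to 4 genes per list. Some regions that this rule names are not reported here. The members and the 16 lists (301 genes, all found) were chosen with earlier results of these data known. The only test was an exact two-sided permutation test over libraries. Clones a and b pair the times by label; over the 21232 regions the clones' deviations at 0 h and 2 h had a correlation of -0.00848. Scripts (Python 3.11.15, pandas 2.3.3, scipy 1.17.1) were tested on simulated data. Alternatives covered overlap, score thresholds, list length, windows and leaving out each library.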

Additional observations from a re-analysis of the deposited data

How the results depend on the processing

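The number of regions was 427 with a score of at least 100 in all lists and 219 with the 20000 highest peaks of each library, against 770; the causes were not tested, though both settings use fewer peaks. It ran from 831 to 1225 when 1 library at a time was left out, the highest without the MED24 2 h library of clone a. The number of genes ran from 635 to 895 when each of the 4 MED24 libraries was left out in turn. The share at a gene start was 2.01% with a window of 500 bp and 10.5% with 5 kb. The median width was 324 bp when MED24 peaks were measured in place of merged regions. With the clone as a replicate block the shift between times was again -13.6 points (exact permutation p = 0.5, the smallest that 2 pairs allow). Its sign held in all alternatives run, and it ran from -9.68 points without the 0 h library of clone a to -17.6 without that of clone b. Leaving out 1 library could not change the sign, because both 2 h medians stood below both 0 h medians. The shift was -14.4 without chromosome 6, an alternative added after seeing the data. The share on chromosome 6 ran from 11.2% to 13.8% over alternatives that were also added later. Unknown depth limits the reading of an absent MED1 call: a region can lack a call and still hold MED1.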
